A study of Arabidopsis thaliana with 16 samples.

Results

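The genes described here are 10 Arabidopsis thaliana loci that act while the young anther is being laid out: SPL/NZZ (AT4G27330), EMS1 (AT5G07280), TPD1 (AT4G24972), BAM1 (AT5G65700), BAM2 (AT3G49670), SERK1 (AT1G71830), SERK2 (AT1G34210), RPK2 (AT3G02130), ROXY1 (AT3G02000) and ROXY2 (AT5G14070). They were chosen by locus for their known roles, with no threshold on their values, but with earlier results of these data known. They are 10 of 33681 genes in the deposited tables. All 10 were among the 21309 genes that reached a CPM (count scaled by library size) of 1 in at least 1 library and were tested. RNA came from whole pre-mitotic flower buds that contained anther stages 1 to 10. Col-0, the wild type (WT), and the bhlh89,91 double mutant, a cross of the T-DNA insertion lines SALK-123106 and GK-345C06, were each kept in normal light (nominally 200 µmol m-2 s-1, measured as 205 ± 8.6 SD) or in low light (nominally 50, measured as 53 ± 5) under shading nets from the onset of flowering. Plants of all 4 groups grew at 22 °C, as the labels give it, with 16 h days under fluorescent lamps, and each group gave 4 biological replicates, 16 libraries in all.

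In the anther primordium, SPL/NZZ starts the sporogenous lineage, and BAM receptors hold the balance between the inner sporogenous cells and the parietal layers around them. The small secreted protein TPD1, sent out by the sporogenous cells, then binds the receptor kinase EMS1 with its co-receptors SERK1 and SERK2, and this signal sets the tapetum, the cell layer that feeds the developing pollen. RPK2, a further receptor kinase, is needed for the inner anther wall layers, and the glutaredoxins ROXY1 and ROXY2 act redundantly in early anther lobe and pollen mother cell formation.

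Depth was even, with 20419619 to 23346158 estimated counts per library. Transcripts of the mutated genes were still counted in bhlh89,91: in normal light, bHLH89 averaged 45.9 TPM (transcript abundance scaled for length and library size) in WT buds and 22.3 TPM in the mutant, and bHLH91 30.1 and 22.8 TPM. By quantitative PCR, the authors report far lower shares of the WT level for both genes in this line, whose insertions lie in exons. Which parts of the transcripts the counts come from was not examined, so they do not measure intact transcript. All 10 tapetum markers and all 8 meiocyte markers examined were detected in every library, as were carpel, ovule and green tissue markers, whereas 7 of 12 late pollen markers had a zero in some libraries. Summed over the markers, tapetum RNA was 3510 to 4708 TPM in Col-0 in normal light and 3036 to 3391 TPM in low light, and meiocyte RNA was 71.5 to 79.2 and 46.3 to 50.5 TPM. In bhlh89,91 the tapetum sums were 3390 to 4835 TPM in normal light and 2163 to 3707 TPM in low light, and the meiocyte sums 67.0 to 76.8 and 49.7 to 65.8 TPM. The single markers were tested with edgeR in the same way as the 10 genes. In Col-0, 1 tapetum gene (ATA7) rose and 7 of 10 fell in low light, and in bhlh89,91 0 rose and 4 fell. Of the 8 meiocyte markers, 6 fell in Col-0 and 3 in bhlh89,91. Of all genes, 29.1% rose and 28.9% fell in low light in Col-0, and 16.7% rose and 16.6% fell in bhlh89,91. Markers of the other organs moved too: 4 of 6 carpel and ovule markers rose in low light in each genotype, with sums of 238 to 257 and 253 to 273 TPM in Col-0 and of 214 to 246 and 241 to 290 TPM in bhlh89,91. The petal and stamen identity genes AP3 and PI both fell in each genotype, from sums of 367 to 406 TPM to 300.01 to 315 TPM in Col-0 and from 434 to 464 TPM to 330.4 to 402 TPM in bhlh89,91. The part of these marker shifts in the results below was not tested, and in whole buds fewer cells of a type and less RNA per cell cannot be told apart. Library 4 of bhlh89,91 in low light stood apart, with a tapetum sum of 2163 TPM against 3583 to 3707 TPM in the others (libraries are numbered as the deposited columns are, and a number pairs nothing between groups).

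Of the genes the results turn on, SPL/NZZ lies on chromosome 4 (13682078 to 13683594, minus strand, 3 coding exons), BAM2 on chromosome 3 (18417568 to 18421263, plus strand, 2 coding exons), RPK2 on chromosome 3 (380350 to 384582, plus strand, 1 coding exon) and ROXY2 on chromosome 5 (4541780 to 4542585, plus strand, 1 coding exon), in TAIR10.1. Among the 10 genes are 3 pairs of close relatives. The coding sequences of BAM1 and BAM2 were 81.4% identical, those of SERK1 and SERK2 79.4%, and those of ROXY1 and ROXY2 74.9%, over the aligned bases of the RefSeq (TAIR10.1) models. The longest stretch shared by each pair is printed to show how far unbroken identity runs. It was 41 bases long in the BAM and SERK pairs and 40 in the ROXY pair, shorter than the 100-base reads, so that reads that cross its ends can tell the relatives apart.
BAM1 and BAM2: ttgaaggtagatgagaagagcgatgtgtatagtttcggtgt
SERK1 and SERK2: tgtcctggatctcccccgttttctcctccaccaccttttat
ROXY1 and ROXY2: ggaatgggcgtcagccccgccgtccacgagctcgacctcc

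ROXY1 and ROXY2 belong to the CC-type glutaredoxins, a class found in land plants, whose active site reads Cys-Cys-X-Cys. The 60 coding bases around that site are shown to let the relatives be compared where they are chemically active, with the codons of the motif in capitals, for ROXY1 (chromosome 3, coding bases 121 to 180) and ROXY2 (chromosome 5, coding bases 127 to 186).
ROXY1: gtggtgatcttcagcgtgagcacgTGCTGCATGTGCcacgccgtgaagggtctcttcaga
ROXY2: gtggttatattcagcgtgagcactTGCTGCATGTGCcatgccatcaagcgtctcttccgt
The windows differed at 9 bases and at 0 of the 12 bases of the motif. Counted from 1 at the start of the window, with the ROXY1 base first, the differences were G6T, C9A, G24T, C39T, G43A, G45C, G49C, A58C and A60T.

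A quite different kind of overlap affects ROXY1. The gene (chromosome 3, bases 332275 to 333072, minus strand, 1 coding exon) lies within ACR6 (AT3G01990), a gene for an ACT domain repeat protein on the plus strand. Each of the 768 words of 31 bases in the ROXY1 transcript also occurred in ACR6, read on the other strand, and 3 of the 11 RefSeq transcripts of ACR6 held all of them. The library protocol names no step that marks strand, so that reads from either gene could be shared out between them by the counting, and the ROXY1 values below carry this limit. Which ACR6 transcripts stood in the authors' reference set was not examined. By contrast, 10.7% of the BAM2 words, 5.04% of the SERK1 words and 1.07% of the SERK2 words occurred in an overlapping gene on the opposite strand, and 0.0% of the SPL/NZZ, EMS1 and RPK2 words occurred in any other gene.

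Levels per transcript length (TPM) ordered the genes as follows. BAM1 was highest at 62.6 TPM over the 16 libraries, followed by BAM2 at 42.2, EMS1 at 41.4, SERK2 at 29.5, SERK1 at 24.9, SPL/NZZ at 21.8, RPK2 at 20.1, TPD1 at 7.97, ROXY2 at 4.99 and ROXY1 at 4.25 TPM. The order of BAM2 and EMS1 went with light, BAM2 being above EMS1 in 7 of the 8 normal light libraries and in 1 of the 8 low light libraries. BAM1 was above BAM2, EMS1 above SERK2 and RPK2 above TPD1 in all 16. The remaining neighbours kept their order in 12 to 15 libraries. In whole-bud RNA the receptor transcript EMS1 was thus above that of its ligand, at 5.42 ± 1.35 times the TPM of TPD1. That SD is over the 16 libraries of all 4 groups, whose mean ratios ran from 4.47 (bhlh89,91, low light) to 6.88 (Col-0, normal light). Protein and the levels in single cell types were not measured. ROXY1 and ROXY2 rested on the fewest counts, 25 to 88 and 25 to 89 per library, which alone gives a coefficient of variation of 11.3% to 18.0% from counting.

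**Figure D1:**
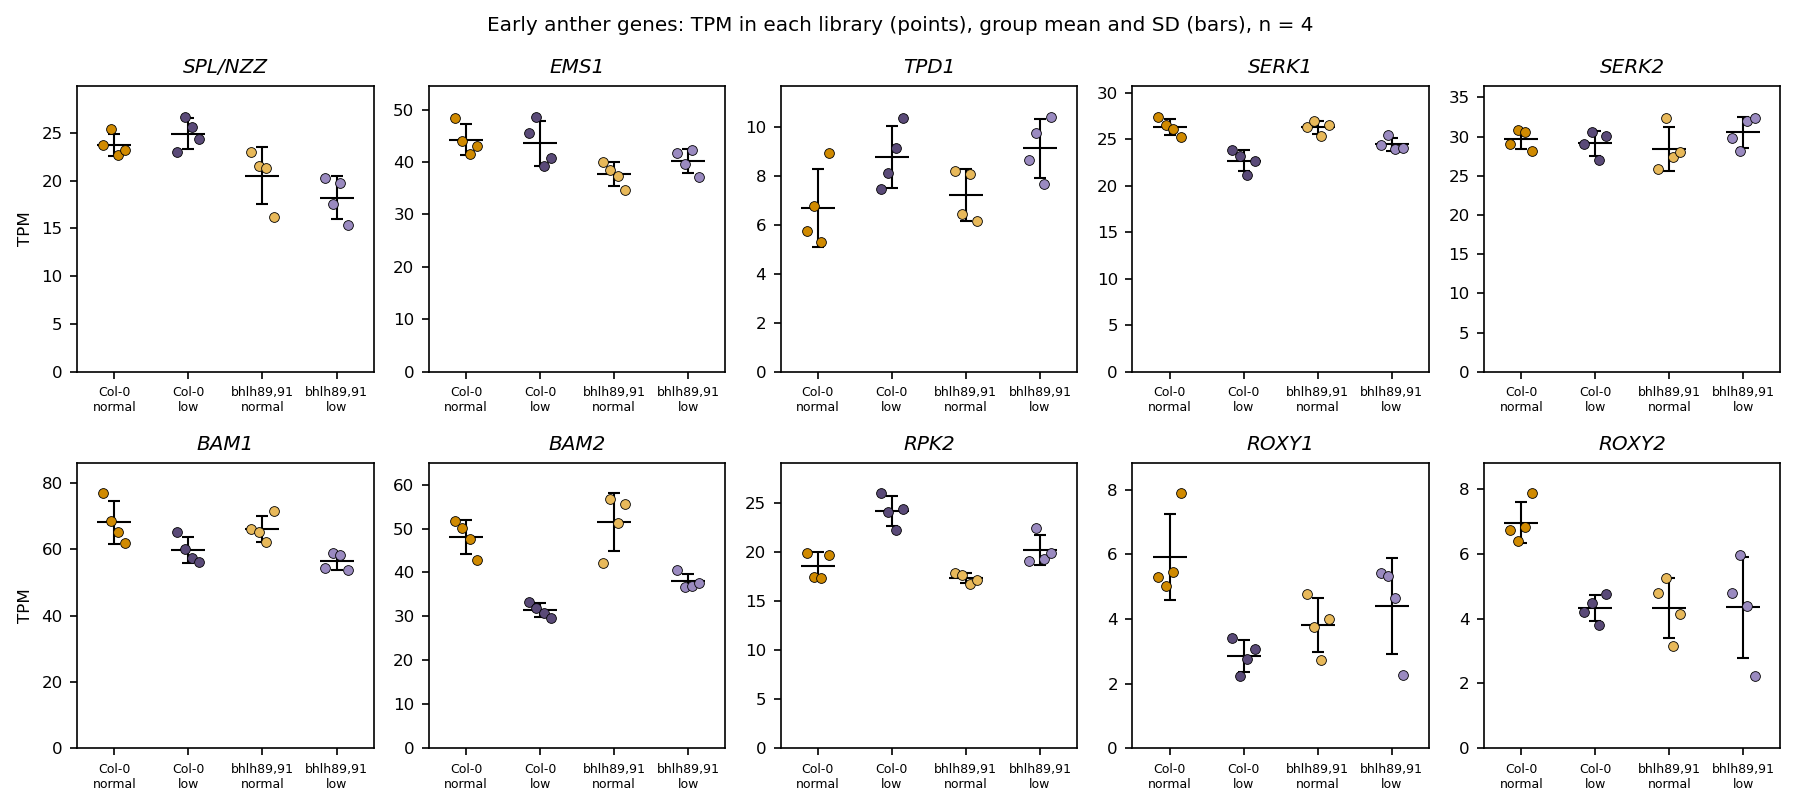
TPM (vertical axis, linear, from 0) of each of the 10 genes in the 4 groups of buds (horizontal axis). Points are libraries, and bars are the group mean and SD (n = 4). BAM2 drops from 48.1 to 31.5 TPM and RPK2 climbs from 18.6 to 24.2 TPM in Col-0 on going to low light, with no overlap between the libraries.

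The response of WT buds to low light was examined first. Of the 10 genes, RPK2 rose and BAM1, BAM2, SERK1, ROXY1 and ROXY2 fell (p under 0.05 in edgeR's quasi-likelihood test after Benjamini-Hochberg adjustment across the tested genes). These 6 of 10 stand against a background of 57.9% of all genes called in this comparison (29.1% of all genes rose and 28.9% fell). In 5 of 10 genes the libraries did not overlap between the light levels, against 53.1% of all genes. The median absolute log2FC was 0.29 for the 10 genes and 0.29 for all genes. At the stricter DEG threshold (adjusted p under 0.01 and log2FC of at least 1 in size) ROXY1 alone was called, against 8.64% of all genes. Its log2FC of -1.05 lay close to that threshold. Leaving out 1 library gave -1.13 to -0.86, with an edgeR adjusted p of up to 0.0115, and other methods gave -1.07 to -0.83. The stricter call was thus not kept throughout.

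Of the TPD1, EMS1 and SERK signal, only SERK1 passed the test. SERK1 was at 27.4, 26.5, 26.1 and 25.3 TPM in normal light and 23.8, 23.2, 21.2 and 22.6 TPM in low light. Every low light library was below every normal light library, although the shift was small, at a log2FC of -0.20 ± 0.04 (SE; edgeR adjusted p = 0.000234). SERK2, the partner that is redundant with it in the anther, had 29.1, 30.9, 30.6 and 28.1 TPM in normal light and 29.1, 30.6, 27.0 and 30.1 TPM in low light, with a log2FC of -0.017 and a 95% interval of -0.16 to 0.12. The libraries of SERK2 overlapped almost fully.

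EMS1 likewise overlapped, with 48.4, 43.9, 41.6 and 43.1 TPM in normal light and 45.6, 48.7, 39.2 and 40.8 TPM in low light (log2FC -0.015, 95% interval -0.15 to 0.12). TPD1, its ligand, was at 5.76, 6.79, 5.33 and 8.94 TPM in normal light and 7.50, 8.14, 9.14 and 10.4 TPM in low light. Low light libraries tended to be higher but library 4 of the normal light group lay among them, and the log2FC of 0.39 ± 0.17 did not pass the test (edgeR adjusted p = 0.0646). Without that library the value was 0.58 (edgeR adjusted p = 0.00669), and it passed without library 1 of the low light group too (edgeR adjusted p = 0.0448) and with limma-voom (adjusted p = 0.0477).

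BAM1 and BAM2, receptors of the CLAVATA1 family, both fell. BAM2 was at 51.6, 50.0, 47.7 and 42.9 TPM in normal light and 33.3, 32.0, 30.9 and 29.8 TPM in low light, and the gap between the groups was wider than either group's range. Its log2FC was -0.60 ± 0.07 (edgeR adjusted p = 5.37e-06), a decrease of 34.1%. BAM1 was at 77.0, 68.6, 65.3 and 61.8 TPM and then at 65.1, 60.1, 57.4 and 56.3 TPM. Here the groups overlapped, and the fall was smaller, with a log2FC of -0.18 ± 0.06 (edgeR adjusted p = 0.0131). It was lost without library 1 of Col-0 in normal light, at -0.13 (edgeR adjusted p = 0.0523).

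The level of BAM1 was therefore 1.42 ± 0.06 (SD, n = 4) times that of BAM2 in Col-0 in normal light and 1.90 ± 0.04 times in low light, and the ranges of these ratios, 1.37 to 1.49 and 1.86 to 1.95, did not overlap. BAM3, a further gene of the family, fell too, with a log2FC of -0.38 ± 0.06 (edgeR adjusted p = 5.99e-05).

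RPK2 was the single gene of the 10 that was called higher. It was at 19.9, 17.5, 17.4 and 19.7 TPM in normal light and 26.0, 24.1, 22.3 and 24.4 TPM in low light, a log2FC of 0.38 ± 0.06 (edgeR adjusted p = 9.74e-05). All low light libraries were above all normal light libraries. SPL/NZZ, the transcriptional regulator at the head of the pathway, was at 23.7, 25.4, 22.7 and 23.2 TPM in normal light and 22.9, 26.7, 25.6 and 24.4 TPM in low light. These overlapped, and the log2FC of 0.078 had a 95% interval of -0.13 to 0.29.

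The glutaredoxins had the largest values in this comparison. ROXY2 was at 6.73, 6.41, 6.84 and 7.87 TPM in normal light and 4.2, 4.49, 3.81 and 4.75 TPM in low light, with no overlap and a log2FC of -0.69 ± 0.22 (edgeR adjusted p = 0.0146). ROXY1 was at 5.29, 5.01, 5.44 and 7.89 TPM and then at 3.41, 2.23, 2.76 and 3.06 TPM, also without overlap, with a log2FC of -1.05 ± 0.26 (edgeR adjusted p = 0.00267). The covering gene ACR6 moved the other way in the same libraries. Its counts were 44, 29, 40 and 31 in normal light and 65, 113, 84 and 91 in low light, a log2FC of 1.33 ± 0.20 (edgeR adjusted p = 5.06e-05).

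When the counts of ROXY1 and ACR6 were added, an alternative chosen after seeing the data, Col-0 had sums of 84 to 119 in normal light and 101 to 139 in low light. The sums overlapped, and their log2FC was 0.26 (edgeR adjusted p = 0.188). Opposite movements of ROXY1 and ACR6 cancel in such a sum whatever their source, so the sum is no test of the ROXY1 call by itself. ROXY2 overlaps no other gene, but 10 of its words of 31 bases (1.29%) occurred in both ROXY1 and ACR6.

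**Figure D2:**
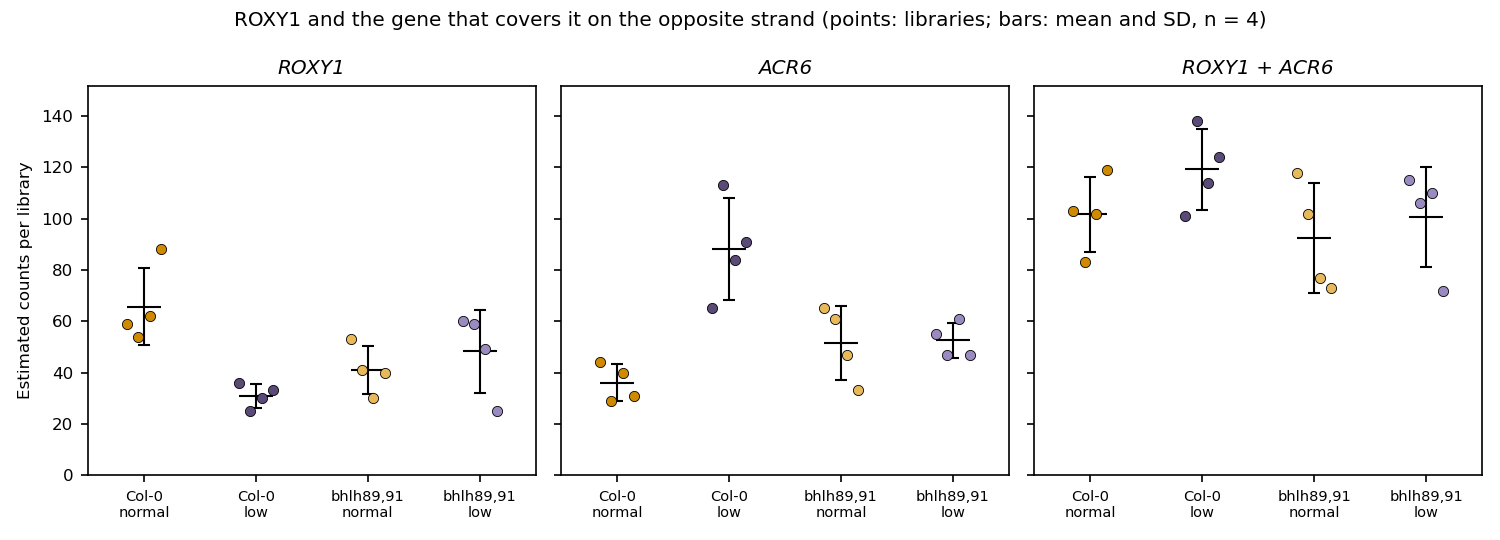
Estimated counts per library (vertical axis, linear, from 0) for ROXY1, ACR6 and their sum in the 4 groups of buds (horizontal axis). Points are libraries, and bars are the mean and SD (n = 4). In Col-0, ROXY1 goes from 54 to 88 counts in normal light to 25 to 36 in low light while ACR6 goes from 29 to 44 up to 65 to 113, and the sums overlap.

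The same light comparison was then made in bhlh89,91. RPK2 rose and BAM1 and BAM2 fell, 3 of 10 genes against a background of 33.2% of all genes (16.7% higher and 16.6% lower), and the same 3 of 10 had no overlap between libraries, against 28.4%. No gene of the 10 met the DEG threshold, which 3.42% of all genes met. The median absolute log2FC was 0.18 for the 10 genes and 0.18 for all genes.

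BAM2 was at 42.1, 56.7, 51.4 and 55.6 TPM in normal light and 40.6, 36.8, 36.9 and 37.7 TPM in low light, a log2FC of -0.41 ± 0.07 (edgeR adjusted p = 0.000552). Library 1 of each group brought the groups close, at 42.1 and 40.6 TPM. BAM1 was at 66.1, 65.2, 62.2 and 71.6 TPM and then at 54.3, 59.0, 58.3 and 53.9 TPM, a log2FC of -0.21 ± 0.06 (edgeR adjusted p = 0.0103). Its groups were clear of each other, unlike in Col-0. RPK2 was at 17.9, 17.7, 16.7 and 17.2 TPM and then at 19.2, 22.4, 19.3 and 19.96 TPM, all low light libraries being higher, with a log2FC of 0.24 ± 0.06 (edgeR adjusted p = 0.00884).

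SERK1 was at 26.3, 27.0, 25.3 and 26.5 TPM in normal light and 24.4, 25.5, 23.97 and 24.05 TPM in low light in the mutant. The ranges overlapped narrowly, and the log2FC of -0.081 ± 0.037 did not pass (edgeR adjusted p = 0.109). SERK2 was at 25.9, 32.3, 27.4 and 28.1 TPM and then at 29.8, 28.1, 32.0 and 32.3 TPM, a log2FC of 0.13 with a 95% interval of -0.013 to 0.27. Without library 2 of the normal light group SERK2 was called, at 0.20 (edgeR adjusted p = 0.0174).

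EMS1 was at 40.1, 38.5, 37.4 and 34.7 TPM in normal light and 41.6, 39.7, 42.3 and 37.1 TPM in low light, with overlap and a log2FC of 0.11 (95% interval -0.025 to 0.25). TPD1 was at 8.21, 6.47, 8.10 and 6.18 TPM and then at 8.68, 9.78, 7.70 and 10.4 TPM. Its log2FC of 0.36 ± 0.17 was near that in Col-0 and again did not pass (edgeR adjusted p = 0.128).

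SPL/NZZ was at 23.02, 21.5, 21.3 and 16.2 TPM in normal light and 20.3, 17.5, 19.7 and 15.4 TPM in low light in bhlh89,91. Library 4 was the lowest in both groups, and the log2FC of -0.15 ± 0.10 did not pass (edgeR adjusted p = 0.257). Without library 4 of the normal light group it was -0.26 and passed (edgeR adjusted p = 0.0241).

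For ROXY1 the mutant libraries held 4.76, 3.76, 2.73 and 3.99 TPM in normal light and 5.41, 5.32, 4.64 and 2.25 TPM in low light, and for ROXY2 4.79, 5.25, 3.14 and 4.13 TPM and then 4.80, 5.96, 4.39 and 2.22 TPM. In both genes library 4 of the low light group was the lowest of all 4 and lay below every normal light library. The log2FC was 0.22 ± 0.26 for ROXY1 and 0.021 ± 0.229 for ROXY2, with 95% intervals of -0.32 to 0.77 and -0.46 to 0.51. In the low light group the coefficient of variation between libraries was 33.5% for ROXY1 and 36.0% for ROXY2, against 14.4% from counting alone. Without library 4 of the low light group the value for ROXY2 was 0.24.

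**Figure D3:**
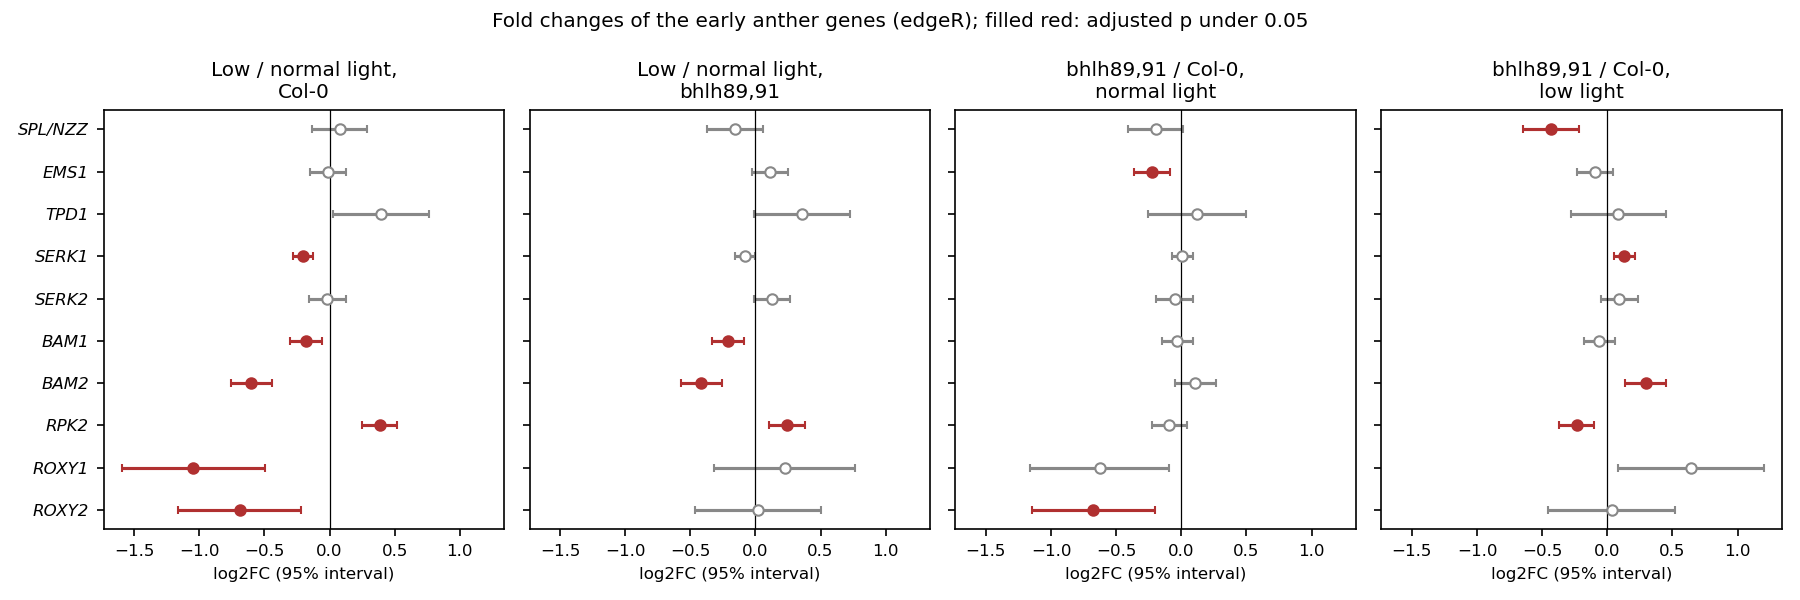
The log2FC (horizontal axis) of the 10 genes (vertical axis) in the light comparison within each genotype and the genotype comparison within each light level. Points are edgeR estimates, bars are 95% intervals, and filled red points have an adjusted p under 0.05. BAM1, BAM2 and RPK2 are filled in both light comparisons, and the bars of TPD1, ROXY1 and ROXY2 are the longest.

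Whether the light responses differed between the genotypes was tested as an interaction. ROXY1 alone passed, with a difference of 1.27 ± 0.36 on the log2 scale (edgeR adjusted p = 0.0203), 1 of 10 genes against a background of 23% of all genes, 11.9% with a positive difference. ACR6 by itself gave -1.299 ± 0.291 (edgeR adjusted p = 0.00486). The sum of ROXY1 and ACR6, in which such opposite movements cancel, had a difference of -0.14 (edgeR adjusted p = 0.703). No gene of the 10 met the DEG threshold for this term, which 2.33% of all genes met.

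ROXY2 differed by 0.71 ± 0.32 and did not pass (edgeR adjusted p = 0.121), although without library 4 of bhlh89,91 in low light the value was 0.93 and passed (edgeR adjusted p = 0.0130). BAM2 differed by 0.19 (95% interval -0.034 to 0.41), SERK1 by 0.12 (0.012 to 0.24, edgeR adjusted p = 0.103) and RPK2 by -0.14 (-0.33 to 0.049). The smaller mutant values for BAM2 and RPK2 and the missing SERK1 call were therefore not shown to differ from Col-0. For SPL/NZZ the difference was -0.23 (-0.53 to 0.067), and it passed at -0.34 without library 4 of bhlh89,91 in normal light (edgeR adjusted p = 0.0347).

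Between genotypes in normal light, EMS1 and ROXY2 were lower in bhlh89,91, 2 of 10 genes against a background of 16.7% of all genes, 7.66% being lower. EMS1, ROXY1 and ROXY2, 3 of 10, had no overlap between the genotypes, against 20.1%. No gene of the 10 met the DEG threshold, against 1.59% of all genes. EMS1 averaged 44.3 ± 2.93 TPM (SD, n = 4) in Col-0 and 37.7 ± 2.26 TPM in bhlh89,91, a log2FC of -0.22 ± 0.06 (edgeR adjusted p = 0.0285). Of the 16 fits that each left out a library, 4 lost this call. These were the fits without library 3 or 4 of bhlh89,91 or library 1 or 4 of Col-0, all in normal light. Fits that left out a low light library, which is outside this comparison, kept it.

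ROXY2 averaged 6.96 ± 0.63 TPM in Col-0 buds and 4.33 ± 0.92 TPM in bhlh89,91, with a log2FC of -0.68 ± 0.22 just inside the threshold (edgeR adjusted p = 0.0481). In 14 of the 16 fits that left out a library the ROXY2 call was lost. ROXY1 averaged 5.91 ± 1.33 and 3.81 ± 0.84 TPM and did not pass (log2FC -0.63 ± 0.25, edgeR adjusted p = 0.103). BAM1, BAM2, SERK1, SERK2, RPK2, TPD1 and SPL/NZZ were not called, with log2FC values from -0.20 to 0.12, although without library 1 of bhlh89,91 in normal light BAM2 was called at 0.19 (edgeR adjusted p = 0.0358).

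In low light, BAM2 and SERK1 were higher and SPL/NZZ and RPK2 lower in bhlh89,91 than in Col-0, 4 of 10 genes against a background of 49.4% of all genes, 25.1% higher and 24.3% lower. BAM2, SERK1 and SPL/NZZ, 3 of 10, had no overlap, against 43.8%. No gene of the 10 met the DEG threshold, against 6.18%. The median absolute log2FC was 0.11 for the 10 genes and 0.24 for all genes.

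SPL/NZZ averaged 24.9 ± 1.60 TPM in Col-0 buds and 18.2 ± 2.24 TPM in bhlh89,91, and its highest mutant library, at 20.3 TPM, was below the lowest Col-0 library, at 22.9 TPM. The log2FC was -0.43 ± 0.10 (edgeR adjusted p = 0.00226), a level 25.8% lower. In normal light the same contrast gave -0.20 ± 0.10 and did not pass (edgeR adjusted p = 0.191), and the difference between these contrasts is the interaction given above, which did not pass either.

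BAM2 averaged 31.5 ± 1.52 TPM in Col-0 buds and 38.0 ± 1.76 TPM in bhlh89,91 (log2FC 0.29 ± 0.07, edgeR adjusted p = 0.00382). RPK2 averaged 24.2 ± 1.54 and 20.2 ± 1.52 TPM (log2FC -0.23 ± 0.06, edgeR adjusted p = 0.00649), its highest mutant library, at 22.4 TPM, just reaching the lowest Col-0 library, at 22.3 TPM. For both receptors the mutant in low light lay nearer to the normal light level than Col-0 in low light did. The comparisons share libraries, however, since Col-0 in low light enters the light comparison and the genotype comparison alike.

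SERK1 averaged 22.7 ± 1.11 TPM in Col-0 buds and 24.5 ± 0.69 TPM in bhlh89,91, a small difference (log2FC 0.13 ± 0.04, edgeR adjusted p = 0.00857) that did not pass with limma-trend on log2(TPM + 1) (adjusted p = 0.058). ROXY1 averaged 2.87 ± 0.50 and 4.41 ± 1.48 TPM (log2FC 0.64 ± 0.26, edgeR adjusted p = 0.0528), and without library 4 of bhlh89,91 in low light it was called at 0.85 (edgeR adjusted p = 0.00565). Its sum with ACR6 gave -0.23 (edgeR adjusted p = 0.261), and ACR6 alone was lower in the mutant at -0.73 ± 0.20 (edgeR adjusted p = 0.00642). ROXY2 was level between the genotypes, at 4.31 ± 0.40 and 4.34 ± 1.56 TPM (log2FC 0.034, 95% interval -0.45 to 0.52).

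Within the related pairs the balance was kept more firmly in some than in others. BAM1 was above BAM2 in 16 of 16 libraries, and the ratio in bhlh89,91 was 1.304 ± 0.185 in normal light and 1.49 ± 0.13 in low light. SERK1 was above SERK2 in 1 of 16 libraries, with group means of the ratio from 0.779 (Col-0, low light) to 0.929 (bhlh89,91, normal light). ROXY1 was above ROXY2 in 4 of 16 libraries, and 3 of these were bhlh89,91 in low light.

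**Figure D4:**
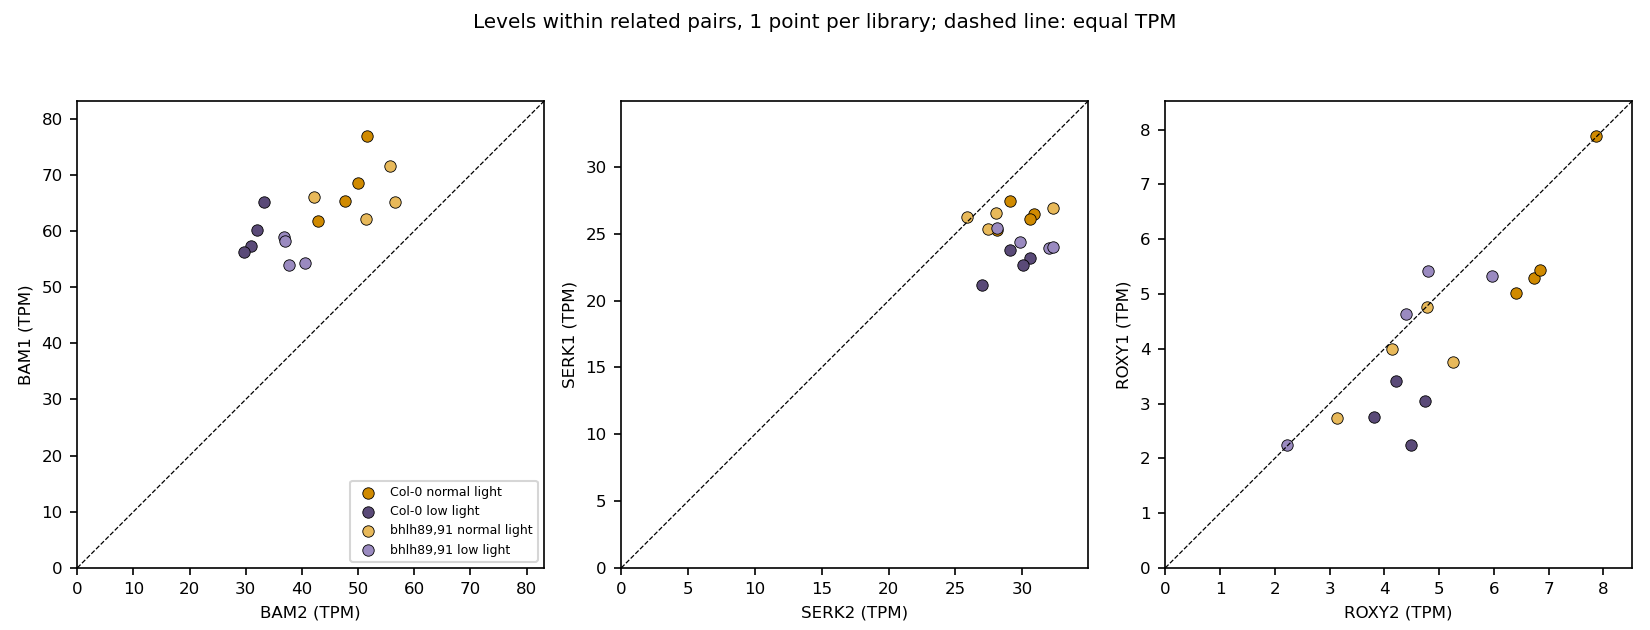
TPM of BAM1 against BAM2, SERK1 against SERK2 and ROXY1 against ROXY2, with 1 point per library coloured by group. The dashed line marks equal levels, and all axes are linear and start at 0. BAM1 lies above BAM2 in 16 of 16 libraries, SERK1 lies above SERK2 in 1 of 16, and the ROXY points spread along the line from 2.22 to 7.89 TPM.

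ROXY1 and ROXY2 varied together, with a Pearson r of 0.82 over the 16 libraries and 0.84 after the group means were taken out. BAM2 and SERK1 had an r of 0.87 over the libraries and 0.14 within groups, and BAM2 and RPK2 had -0.89 and -0.28, so that the shared movement of these genes lay between the groups. The points share library, depth and normalization, and these values are descriptions.

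Among 16421 genes with enough counts, those whose pattern over the 16 libraries was most like that of a gene of the 10 were found by Pearson r on log2 CPM. CLV1, the receptor kinase to which the BAM proteins are related, was the nearest to BAM1 (r = 0.92) and GSL12, a callose synthase gene, came next (r = 0.91). BAM2 was nearest to AT1G77610 and OPS (r = 0.97 for both), RPK2 to PEPKR1 (r = 0.97) and SK32 (r = 0.96), and SERK1 to AT1G35560 and AT4G32140 (r = 0.95 for both). SPL/NZZ and AT1G28710 reached r = 0.90, EMS1 and SCAR2 0.87, TPD1 and AT3G52072 0.87, SERK2 and AT3G61700 0.86, ROXY1 and AT5G41750 0.87 and ROXY2 and AT1G71110 0.95.

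Other genes of early anther patterning and of the same receptor systems, 30 in all and each tested, were counted in the same way. In Col-0, 8 rose and 7 fell in low light, against 29.1% and 28.9% of all genes. In bhlh89,91, 5 rose and 6 fell, against 16.7% and 16.6%. BAK1, a SERK family co-receptor also named SERK3, rose in Col-0 at a log2FC of 0.43 ± 0.06 (edgeR adjusted p = 1.8e-05), whereas SERK1 fell there. In bhlh89,91 it rose at 0.19 ± 0.06 (edgeR adjusted p = 0.0215), a call that was lost at 0.17 to 0.18 without library 3 or 4 of the low light group or library 2 or 4 of the normal light group. BES1, a brassinosteroid-signalling transcription factor gene, rose there at 0.18 ± 0.06 (edgeR adjusted p = 0.0388). That call was lost, at 0.13 to 0.17, in 5 of the 16 fits that left out a library, each of them a bhlh89,91 library. The other large rises in Col-0 were BEH2, a gene of the BZR1 and BES1 brassinosteroid-signalling family (0.48 ± 0.07), and TPR2, of the TOPLESS co-repressor family (0.40 ± 0.05). The largest falls were BEH3 (-0.49 ± 0.06), BEH1 (-0.46 ± 0.12) and BAM3. In bhlh89,91 the kinase gene MPK3 rose at 1.31 ± 0.33 (edgeR adjusted p = 0.00723), although its low light libraries ranged from 32.1 to 138 TPM, and BEH1 (-0.55 ± 0.13), the receptor kinase gene CIK3 (-0.42 ± 0.10) and BAM3 (-0.30 ± 0.06) fell.

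Against Col-0, 1 of the 30 was higher and 4 lower in bhlh89,91 in normal light, beside 9% and 7.66% of all genes. In low light 7 were higher and 10 lower, beside 25.1% and 24.3% of all genes. TGA10, which encodes a bZIP partner of the ROXY proteins in the anther, was lower in both, at -0.47 ± 0.07 (edgeR adjusted p = 0.00052) and -0.65 ± 0.07 (edgeR adjusted p = 3.69e-06). Its 8 mutant libraries, at 10.01 to 12.7 TPM, were all below its 8 Col-0 libraries, at 15.8 to 20.1 TPM. TGA9, the other such partner and a gene chosen after its values were seen, was not called in either, at -0.0077 and -0.16. SPL8, an SBP-box transcription factor gene that acts in early anther development, was lower at -0.23 ± 0.07 in normal light (edgeR adjusted p = 0.0348). That call was lost in 5 of the 16 fits that left out a library, each of them a normal light library. It was also lost in a fit of only the groups compared (edgeR adjusted p = 0.0764). In low light SPL8 was lower at -0.43 ± 0.07 (edgeR adjusted p = 0.000135). The co-repressor gene TPL was lower too in normal light (-0.23 ± 0.05), where BEH4 alone was higher (0.21 ± 0.04), and CIK3 was lower in low light (-0.50 ± 0.10), where BEH3 (0.44 ± 0.06) and CIK4 (0.40 ± 0.08) were higher. MPK3 was higher in low light at 1.02 ± 0.33 (edgeR adjusted p = 0.018), but not without library 2 of the mutant, at 0.60 (edgeR adjusted p = 0.0981), or without library 2 of Col-0, at 0.85 (edgeR adjusted p = 0.0575). A fit of only the groups compared did not call it either (edgeR adjusted p = 0.0505).

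For the interaction, 3 of the 30 were higher and 5 lower, beside 11.9% and 11.1% of all genes. MPK3 had the largest value at 1.41 ± 0.47 (edgeR adjusted p = 0.0417). Its call was lost in 10 of the 16 fits that left out a library and with limma-voom (adjusted p = 0.0669). CIK4 followed at 0.46 ± 0.11 and BEH3 at 0.27 ± 0.09. The BEH3 call was lost in 13 of the fits that left out a library and with no filter (edgeR adjusted p = 0.0589). The lowest among those called were TPR2 (-0.34 ± 0.07), MPK6 (-0.33 ± 0.06) and CIK2 (-0.31 ± 0.09). The CIK2 call was lost without library 3 of Col-0 in low light, at -0.26 (edgeR adjusted p = 0.051). CIK3 had a lower value, -0.39, but was not called (edgeR adjusted p = 0.0671).

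The 250 bases before each RefSeq start were searched on both strands for the E-box CANNTG, the core that bHLH proteins bind, for its special case the G-box CACGTG, and for TGACG, the core bound by TGA factors. An E-box stood in 6 of 10 windows, against 55.3% of 27443 gene starts, a G-box in 0 of 10 against 6.49%, and TGACG in 3 of 10 against 18.6%. The windows of SPL/NZZ and BAM2 are printed, as the genes with the largest genotype difference in low light in each direction among those called, with E-boxes in capitals. They are SPL/NZZ at chr4:13683595-13683844 on the minus strand and BAM2 at chr3:18417318-18417567 on the plus strand (TAIR10.1).
SPL/NZZ: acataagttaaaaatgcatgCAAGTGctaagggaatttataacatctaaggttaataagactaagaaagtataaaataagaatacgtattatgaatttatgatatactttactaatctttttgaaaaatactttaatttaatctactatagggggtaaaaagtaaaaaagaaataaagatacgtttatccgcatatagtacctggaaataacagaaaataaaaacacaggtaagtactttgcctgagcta
BAM2: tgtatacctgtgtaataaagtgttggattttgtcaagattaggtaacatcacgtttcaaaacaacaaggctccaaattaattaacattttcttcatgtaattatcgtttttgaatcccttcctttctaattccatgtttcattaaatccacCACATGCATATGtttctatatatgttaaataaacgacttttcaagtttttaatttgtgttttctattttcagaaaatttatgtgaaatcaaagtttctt
SPL/NZZ held 1 E-box and BAM2 2 adjoining ones. A match describes the letters and is no evidence of a bound site.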

How the data were processed

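Total RNA was extracted from whole pre-mitotic buds, poly-A selected and sequenced as 100 bp paired reads on the BGISEQ-500 platform. The authors quantified reads with Salmon (version not given in the sources used here) against the AtRTD2 transcripts and deposited estimated counts and TPM per gene, made with tximport by the length-scaled TPM method. No read depth beyond these totals (20419619 to 23346158 per library) was used. Counts were rounded to whole numbers, a gene was kept if it reached 1 CPM in any of the 16 libraries (21309 genes), and edgeR 4.0.16 (R 4.3.3) quasi-likelihood tests with TMM factors were fitted over all 16 libraries with 4 group means, 4 libraries per group. P-values were adjusted by Benjamini-Hochberg over all genes tested in each of 5 comparisons. The SE is the size of the log2FC over the root of its F statistic, and intervals are 95%. DESeq2 1.42.0, limma 3.58.1 (voom, and trend on log2 of TPM plus a pseudocount of 1 or 0.1), other scaling, other filters, single comparisons, a stricter threshold and leaving out each library were tried. TPM levels are given as deposited by the authors. Sequences, 31-base words and start positions came from RefSeq TAIR10.1, not from AtRTD2. Columns of the deposited tables name group and a number from 1 to 4. Such columns could be assigned to groups but not to single samples. The text names the 10 loci, the genes nearest to each by correlation (2 per gene at most), the mutated genes, and, of 30 other early anther genes, the 3 largest called rises and falls in each comparison. The members and all gene lists were chosen with earlier results of these data known. Each edgeR p-value sets a difference between group means against the spread between libraries within groups, estimated from all 4 groups together.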

Additional observations from a re-analysis of the deposited data

Results flagged for a closer look

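ROXY1 was highest in library 4 of Col-0 in normal light, at 7.89 TPM, with the next library at 5.44 TPM and the lowest at 5.01 TPM, and its gap to the next took up 0.851 of the range of the group. It was the only such case among the 40 sets of 4 libraries examined (10 genes in 4 groups), of which chance gives about 1 in 20.

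The light response of ROXY1 differed between bhlh89,91 and Col-0 by 1.27 on the log2 scale (edgeR adjusted p = 0.0203). This is the gene whose whole transcript is covered by ACR6. The difference was -0.14 (edgeR adjusted p = 0.703) for the summed counts of both, in which opposite movements cancel.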

How the results depend on the processing

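Of 1345 values for the 10 genes under the alternatives, 1253 kept their direction and their side of the threshold, 41 lost the call, 14 gained it and 37 turned direction. This total is no measure of stability. It includes results not called at the start, fits without a library outside the comparison, and the stricter threshold, which can only lose calls. Counts of called genes were as follows. With the stricter threshold 1 gene was called for light in Col-0, 0 for light in bhlh89,91, 0 for genotype in normal light, 0 for genotype in low light and 0 for the interaction. For genotype in normal light the count was 1 with library size alone, 1 with no filter, 1 with limma-trend on log2(TPM + 0.1) and 0 with limma-trend on log2(TPM + 1) without a filter, and for the interaction it was 0 with ROXY1 and ACR6 summed. Leaving out each library gave 5 to 7, 3 to 4, 0 to 3, 4 to 5 and 1 to 2 called genes in the 5 comparisons, in the order above. The causes of these shifts were not tested.

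Directions turned as follows. The sum of ROXY1 and ACR6, a different quantity from ROXY1 alone, gave 0.26 for light in Col-0, -0.23 for genotype in low light and -0.14 for the interaction. ROXY2 gave, for light in bhlh89,91, -0.031 with limma-voom, -0.033 and -0.053 with limma-trend (pseudocounts 1 and 0.1) and -0.033 without a filter, and, for genotype in low light, -0.041, -0.043, -0.069 and -0.043. SERK1 gave, for genotype in normal light, -0.00179, -0.00184 and -0.00179 with limma-trend (pseudocount 1, 0.1, and 1 without a filter). None of these values passed the test. Leaving out 1 library gave ranges across 0 for light in Col-0 of EMS1 (-0.069 to 0.022) and SERK2 (-0.037 to 0.00922), for light in bhlh89,91 of ROXY2 (-0.17 to 0.24), for genotype in normal light of BAM1 (-0.062 to 0.022) and SERK1 (-0.013 to 0.017), for genotype in low light of TPD1 (-0.00274 to 0.17) and ROXY2 (-0.16 to 0.24), and for the interaction of TPD1 (-0.23 to 0.060) and BAM1 (-0.082 to 0.00699).

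With scaling by library size alone the median log2FC of all genes lay between -0.036 and 0.025 in the 5 comparisons, against -0.0072 to 0.0043 in the main fit. No paired analysis was possible because the deposited columns carry numbers that do not match the replicate numbers in the titles. Depth limits ROXY1, ROXY2 and TPD1 most, with means of 31 to 162 counts per library in a group.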
